A study of Mus musculus with 6 samples.

Results

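Cyclins of the G1 phase and the inhibitors of their kinases were examined in mouse embryonic fibroblasts (MEFs) with less Ube2o. The set holds 10 genes of the 20289 gene symbols on the array: the D-type cyclins Ccnd1, Ccnd2 and Ccnd3, the E-type cyclins Ccne1 and Ccne2, the CIP/KIP inhibitors Cdkn1a and Cdkn1b, and the INK4 inhibitors Cdkn2a, Cdkn2b and Cdkn2c. They were chosen by gene symbol and are read by 24 of the 45281 probes. For each gene the probe with the highest mean over the arrays gives the value, and its other probes serve as a check. Of the 10 genes, 9 lay above the background inferred from the dim probes on all 6 arrays, and Cdkn1b did so on 4.

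The cells were C57BL6 MEFs from embryos at day 13.5 that stably expressed a short hairpin RNA (shRNA). On 3 arrays the shRNA was directed against Ube2o, which encodes a large ubiquitin-conjugating enzyme, and on 3 arrays it was directed against GFP, a jellyfish protein absent from mouse cells, as the control. The titles name a Ube2o shRNA, while another label of the same arrays names an siRNA, and the titles were followed. The arrays of Ube2o shRNA all carry 1 hairpin name, so no second hairpin was compared here. Labelled cRNA was hybridised to single-colour Illumina BeadChips.

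D-type cyclins are induced by mitogens and activate CDK4 and CDK6, which begin to phosphorylate the retinoblastoma protein. E-type cyclins then activate CDK2 and complete the passage into S phase, and their genes are targets of the E2F factors released from the retinoblastoma protein. INK4 proteins bind CDK4 and CDK6 and keep them from cyclin D, and CIP/KIP proteins bind cyclin-CDK complexes, above all those of CDK2. In cultured MEFs the products of the Cdkn2a and Cdkn2b locus are known for their accumulation with passage, and Cdkn2a encodes a second protein, p19ARF, which acts through p53.

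The targeted gene, Ube2o, had deposited signals of 668, 851 and 650 on the Ube2o shRNA arrays, against 1875, 1961 and 2091 on the GFP shRNA arrays, and a log2 change of -1.45 (SE 0.12, limma adjusted p = 3.15e-07). Normalized log2 intensities correlated across probes at 0.991 to 0.992 between arrays of the same group and at 0.983 to 0.986 between arrays of different groups. The threshold used throughout, a limma p of 0.05 after Benjamini-Hochberg adjustment, was passed by 4.94% of all probes. Of these, 1019 rose and 1217 fell, and with median scaling of the arrays 567 rose and 1544 fell. All 10 fibroblast markers lay above background on all 6 arrays, and 1 of them, the receptor gene Pdgfra, fell by 0.76 on the log2 scale. Of 5 endothelial markers 4, and of 6 epithelial markers 3, lay above background on 0 arrays. The same held for 6 of 11 macrophage and leukocyte markers, among them Ptprc, Cd68, Adgre1 and Itgam. Even so, 3 markers of that list fell, with log2 changes of -2.17 for Cd74, -0.74 for Aif1 and -0.57 for Cd14. Lyz2 stood above background on 6 arrays and had a log2 change of -0.19 (limma adjusted p = 0.475). Csf1r, above background on 2 arrays of each group, had 0.028. The summed linear intensity of the list lay between 1554 and 1585 on Ube2o shRNA arrays, against 2275 to 2589 on GFP shRNA arrays. That sum includes Cd74, whose mean log2 intensity was 7.17 with Ube2o shRNA and 9.34 with GFP shRNA. It does not show a fall of every marker. The part of these shifts in the results below was not tested. In bulk RNA, fewer cells that express a gene and less RNA per cell cannot be told apart.

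The neighbouring inhibitor genes Cdkn2a and Cdkn2b had changes of opposite signs, and neither passed the threshold. Promoter sequences were shown for both genes and for Ccnd3, the cyclin that rose and has a RefSeq window. They are 250 bases upstream of an annotated start in GRCm38.p6, written in the direction of transcription, and capitals mark a GC box (GGGCGG) or an E2F-type motif (TTTCCCGC, TTTCGCGC, TTTGCCGC or TTTGGCGC) on either strand, so that a GC box of the opposite strand reads CCGCCC. The Ccnd3 stretches are chr17:47504801-47505050 and chr17:47593217-47593466 on the plus strand. Those of Cdkn2a are chr4:89294620-89294869, upstream of the p19ARF start, and chr4:89282193-89282442, upstream of the p16INK4a start, and that of Cdkn2b is chr4:89311033-89311282, all on the minus strand.
Ccnd3, outer start: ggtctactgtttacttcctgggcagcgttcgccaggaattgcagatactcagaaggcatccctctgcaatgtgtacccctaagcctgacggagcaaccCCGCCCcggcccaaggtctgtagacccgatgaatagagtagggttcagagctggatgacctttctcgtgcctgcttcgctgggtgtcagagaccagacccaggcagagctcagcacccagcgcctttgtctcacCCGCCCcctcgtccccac
Ccnd3, inner start: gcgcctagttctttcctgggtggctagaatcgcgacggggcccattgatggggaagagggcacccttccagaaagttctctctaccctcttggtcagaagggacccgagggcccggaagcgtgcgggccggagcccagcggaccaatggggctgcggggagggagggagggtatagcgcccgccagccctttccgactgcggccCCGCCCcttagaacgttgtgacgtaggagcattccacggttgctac
Cdkn2a, p19ARF start: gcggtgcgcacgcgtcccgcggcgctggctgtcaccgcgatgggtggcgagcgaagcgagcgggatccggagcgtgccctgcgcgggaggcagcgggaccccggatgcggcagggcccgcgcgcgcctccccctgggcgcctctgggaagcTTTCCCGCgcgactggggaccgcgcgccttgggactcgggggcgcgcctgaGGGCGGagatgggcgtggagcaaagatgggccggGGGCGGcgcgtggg
Cdkn2a, p16INK4a start: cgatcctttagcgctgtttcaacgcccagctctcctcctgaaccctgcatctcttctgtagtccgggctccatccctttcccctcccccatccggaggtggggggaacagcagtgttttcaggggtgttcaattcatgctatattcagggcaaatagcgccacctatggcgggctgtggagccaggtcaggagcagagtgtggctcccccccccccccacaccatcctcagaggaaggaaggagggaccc
Cdkn2b: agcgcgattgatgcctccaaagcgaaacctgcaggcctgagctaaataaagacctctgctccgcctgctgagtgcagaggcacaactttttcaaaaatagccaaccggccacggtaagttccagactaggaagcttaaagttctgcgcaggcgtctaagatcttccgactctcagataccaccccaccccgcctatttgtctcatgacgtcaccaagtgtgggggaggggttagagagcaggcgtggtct

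Windows of 300 bases, with 50 of them after the start, were searched for 7 of the 10 genes. The cyclin genes Ccnd1, Ccnd2 and Ccne2 had no window here and were not searched. These 11 windows held a GC box in 9 cases and an E2F-type motif in 1. Among all 32851 RefSeq windows 35.7% held a GC box and 2.27% an E2F-type motif. The E2F-type match was TTTCCCGC upstream of the p19ARF start, with its first base at -99 from the start. Among the stretches printed above, the outer start of Ccnd3 has 2 GC boxes and the inner start 1, the p19ARF start has 2, and those of the p16INK4a start and of Cdkn2b have 0 of either motif before the start. No printed matches overlap, and a match describes letters in the window, not a bound site.

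Of the 10 genes, 2 rose with Ube2o shRNA, the cyclin genes Ccne2 and Ccnd3, and 8 did not pass an adjusted p of 0.05. Over all genes on the array 2.91% rose and 3.95% fell by their brightest probe. Of the 9330 genes above background on all 6 arrays, 550 rose and 665 fell, which are larger shares. No member fell in the limma test. An unadjusted p under 0.05 was reached by 6 of the 10 genes, the 2 that rose included. Of the others, Cdkn1a and Cdkn2b had lower values on every Ube2o shRNA array, and Ccnd1 and Cdkn2c higher values on every one. The share of all genes at that cut was not counted. All 5 cyclin genes had a positive log2 change, with a median of 0.26, although the sign turned for Ccne1 with median scaling and for Ccnd2 with its probes averaged. Of the inhibitors, 2 of the 5 genes had a positive and 3 a negative one, with a median of -0.23. That median is the value of Cdkn1b, whose probe is near background. The inhibitors above background on all 6 arrays were split, Cdkn2a and Cdkn2c positive and Cdkn1a and Cdkn2b negative. The median log2 change was 0.18 over the 10 genes and 0.0027 over all 20289, those near background included. In the 8 other gene lists followed below the median ran from -0.049 to 0.25, so 0.18 is not particular to the 10 genes. The groups did not overlap for 6 of the 10 genes, 4 with all Ube2o shRNA arrays above and 2 with all below. They did not overlap for 25.6% of all genes, those near background included.

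**Figure D1:**
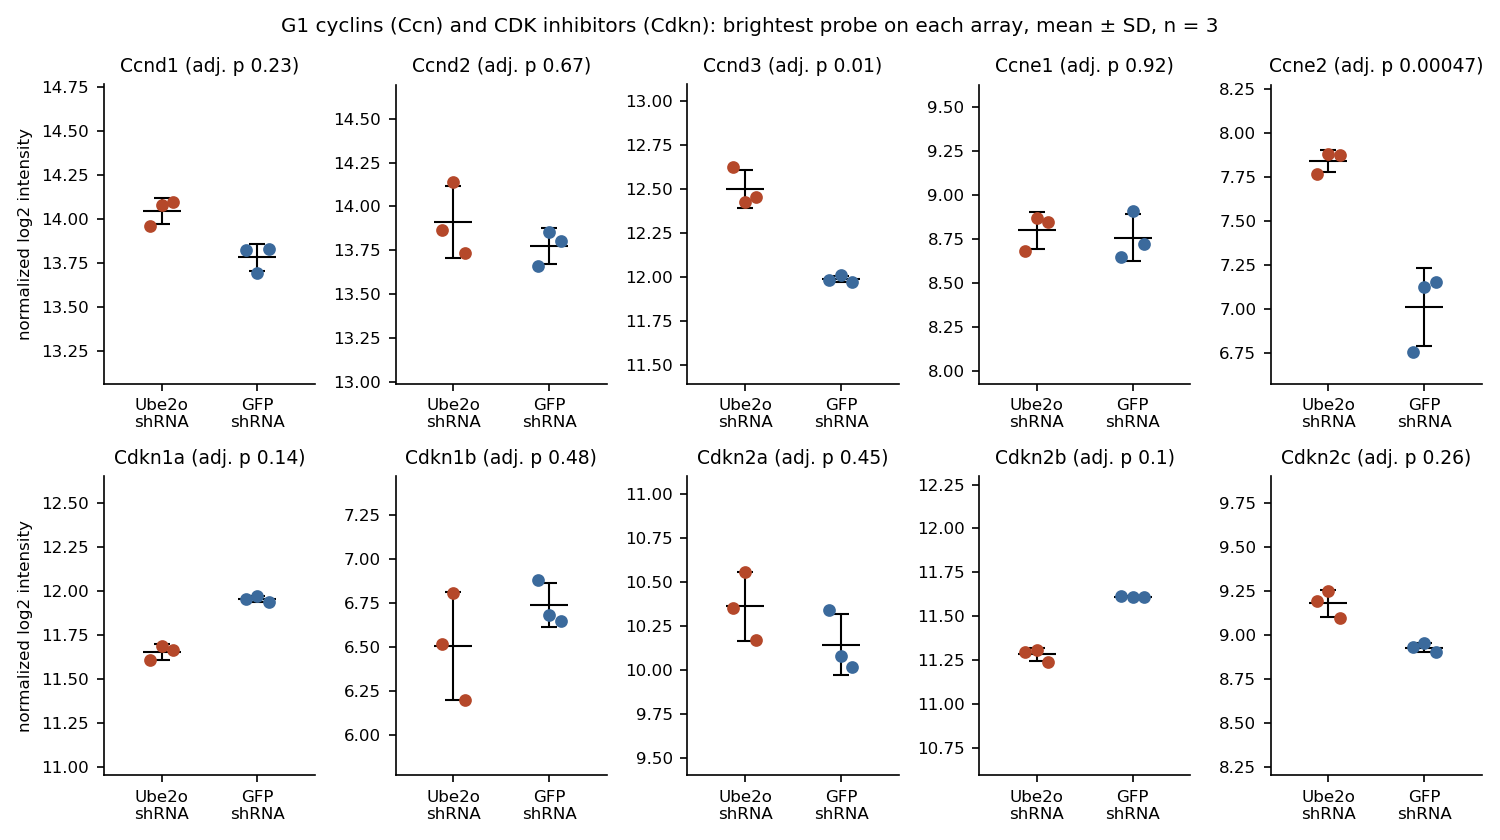
Normalized log2 intensity (vertical axis, the same span in every panel) of the brightest probe of each gene on the 3 Ube2o shRNA arrays (left, red) and the 3 GFP shRNA arrays (right, blue), with the mean and SD as bars. Ccne2, Ccnd3, Ccnd1 and Cdkn2c lie wholly above the GFP shRNA arrays, Cdkn1a and Cdkn2b wholly below, and the other 4 genes overlap.

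Ccne2, one of the E-type cyclins that drive CDK2, showed the largest change of the set. Its deposited signals were 257, 333 and 306 on the Ube2o shRNA arrays, against 187, 218 and 233 on the GFP shRNA arrays. The normalized log2 intensities were 7.77, 7.88 and 7.87 with Ube2o shRNA and 6.75, 7.12 and 7.15 with GFP shRNA. Every Ube2o shRNA array thus lay above every GFP shRNA array, and the lowest value belonged to GFP shRNA replicate 1. The mean was 7.84 ± 0.064 with Ube2o shRNA and 7.01 ± 0.22 with GFP shRNA (SD, n = 3 each), a rise of 0.83 on the log2 scale (SE 0.13, 95% confidence interval 0.57 to 1.10, adjusted p = 0.000469), or 1.78-fold. The probe is dim, and the size differed with the background treatment: the log2 change was 0.61 in the authors' deposited log2 values, 0.57 with no background correction and 1.05 with a smaller background offset of 16, and it passed each time. Without GFP shRNA replicate 1, where Ccne2 was lowest, it was 0.71 and still passed. Only 1 probe reads Ccne2, so no second probe checks it.

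Ccne1, the other E-type cyclin gene, had overlapping groups. Its normalized log2 intensities were 8.68, 8.87 and 8.84 with Ube2o shRNA and 8.65, 8.91 and 8.72 with GFP shRNA. The highest and the lowest of the 6 values both belonged to GFP shRNA arrays. The log2 change was 0.040 (95% confidence interval -0.21 to 0.29, adjusted p = 0.921), an interval that does not reach the change of Ccne2. The change of Ccne1 had a negative sign with median scaling and without GFP shRNA replicate 1. The difference between the changes of Ccne1 and Ccne2 was not itself tested.

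Ccnd3 was the D-type cyclin gene that rose. The deposited signals were 5379, 6066 and 5375 on the Ube2o shRNA arrays and 4131, 4258 and 4494 on the GFP shRNA arrays. Normalized, they were 12.62, 12.42 and 12.45 with Ube2o shRNA and 11.98, 12.01 and 11.97 with GFP shRNA. The GFP shRNA arrays lay close together (SD 0.019, n = 3), the Ube2o shRNA arrays were more spread (SD 0.11, n = 3) with replicate 1 highest, and the groups did not overlap. Ccnd3 rose by 0.51 on the log2 scale (SE 0.11, 95% confidence interval 0.28 to 0.75, adjusted p = 0.0104), or 1.43-fold. Of its other probes, both annotated to another RefSeq transcript of the gene, 1 rose by 0.55 (adjusted p = 0.00904) and 1 had a log2 change of 0.25 and did not pass (adjusted p = 0.376). The call was lost with the background offset of 16 (log2 change 0.52, adjusted p = 0.118), with median scaling (log2 change 0.41, adjusted p = 0.0608) and without Ube2o shRNA replicate 1 (log2 change 0.45, adjusted p = 0.065).

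Ccnd1, the cyclin D gene best known as a mitogen target in fibroblasts, did not pass. Its normalized log2 intensities were 13.96, 14.08 and 14.10 with Ube2o shRNA and 13.83, 13.70 and 13.83 with GFP shRNA. The groups did not overlap, and the log2 change was 0.26 (95% confidence interval 0.029 to 0.50, adjusted p = 0.233). Another probe separated the groups too (log2 change 0.33, adjusted p = 0.111), and on the remaining one they overlapped (log2 change 0.16). Ccnd1 passed with no background correction (adjusted p = 0.0263), in the authors' deposited log2 values (adjusted p = 0.0226) and with a moderation that follows the mean intensity (adjusted p = 0.0217).

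Ccnd2, a D-type cyclin gene with 4 probes, gave no common direction among them. The brightest probe had 13.86, 14.14 and 13.74 with Ube2o shRNA and 13.66, 13.86 and 13.80 with GFP shRNA on the log2 scale, with Ube2o shRNA replicate 2 highest. Its log2 change was 0.14 (95% confidence interval -0.13 to 0.40, adjusted p = 0.667), and a second probe had 0.070. With 1 array left out the change of the brightest probe ran from 0.027 without Ube2o shRNA replicate 2 to 0.22 without Ube2o shRNA replicate 3, and without GFP shRNA replicate 1 it was 0.078. A further probe, annotated to a cDNA clone in place of a RefSeq transcript, read 9.87, 10.32 and 9.84 with Ube2o shRNA and 10.62, 10.39 and 10.38 with GFP shRNA. Its groups did not overlap, in the opposite direction to the brightest probe, with a log2 change of -0.45 (SE 0.14, adjusted p = 0.0698). The remaining probe was near background and had a log2 change of 0.0061.

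**Figure D2:**
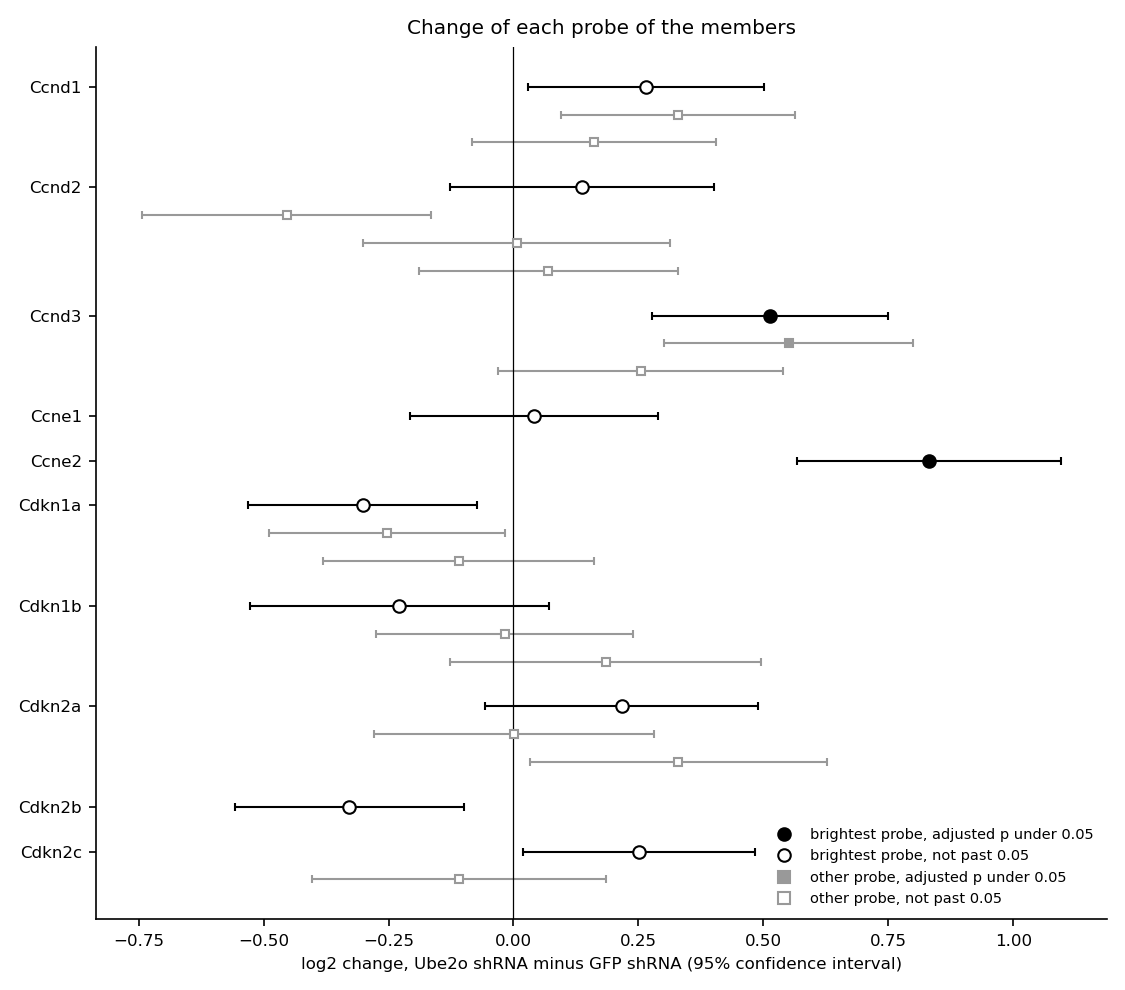
Log2 change, Ube2o shRNA minus GFP shRNA, of each of the 24 probes (horizontal axis) with its 95% confidence interval from limma, brightest probe first for each gene; filled symbols have an adjusted p under 0.05. The filled symbols are Ccne2 and 2 of the 3 Ccnd3 probes, and the 4 probes of Ccnd2 fall on both sides of 0.

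Cdkn1a, which encodes the p53-induced inhibitor p21, was lower on all Ube2o shRNA arrays but did not pass over all probes. Its normalized log2 intensities were 11.61, 11.69 and 11.67 with Ube2o shRNA and 11.96, 11.97 and 11.94 with GFP shRNA. The gap between the groups was larger than the spread within either. The log2 change was -0.30 (SE 0.11, 95% confidence interval -0.53 to -0.072, adjusted p = 0.143). The second probe gave -0.25 with groups that did not overlap, and the third, -0.11 with groups that did. Cdkn1a passed in the authors' deposited log2 values (adjusted p = 0.0104), with no background correction (adjusted p = 0.0072), with the filter on probes above background on 3 arrays (adjusted p = 0.0407) and with the intensity-dependent moderation (adjusted p = 0.0196).

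Cdkn1b, encoding the inhibitor p27, was too dim for a reading. Its brightest probe stood above background on 1 Ube2o shRNA array and on all 3 GFP shRNA arrays. Its log2 intensities were 6.52, 6.81 and 6.19 with Ube2o shRNA and 6.88, 6.68 and 6.65 with GFP shRNA, and the groups overlapped. Its log2 change was -0.23 (95% confidence interval -0.53 to 0.071, adjusted p = 0.475). It was -0.074 without Ube2o shRNA replicate 3, -0.38 without Ube2o shRNA replicate 2 and -0.021 with the probes averaged, -0.37 with the offset of 16 and -0.12 with no background correction. A second probe had the opposite sign, 0.18, and the third lay above background on 0 arrays.

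Cdkn2b, encoding the INK4 inhibitor p15, showed the tightest groups of the set. The normalized log2 intensities were 11.30, 11.31 and 11.24 with Ube2o shRNA and 11.62, 11.61 and 11.61 with GFP shRNA. All Ube2o shRNA arrays lay below all GFP shRNA arrays, with an SD of 0.036 and of 0.0036 (n = 3 each). The log2 change was -0.33 (SE 0.11, 95% confidence interval -0.56 to -0.10, adjusted p = 0.102). The SE is that of the moderated fit, which draws the spread of each probe toward that of all probes. Cdkn2b passed under the same 4 settings as Cdkn1a, with adjusted p-values of 0.00467 in the authors' deposited log2 values, 0.0037 with no background correction, 0.0271 with the filter and 0.0122 with the intensity-dependent moderation.

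Cdkn2a, which lies next to Cdkn2b on chromosome 4 among coding genes, did not share that pattern, although the difference between their changes was not tested. Its brightest probe is annotated to the p19ARF transcript and read 10.36, 10.56 and 10.17 with Ube2o shRNA and 10.34, 10.08 and 10.02 with GFP shRNA. The groups overlapped, and the log2 change was 0.22 (95% confidence interval -0.057 to 0.49, adjusted p = 0.454). With 1 array left out it ran from 0.12 without Ube2o shRNA replicate 2 to 0.31 without Ube2o shRNA replicate 3, and it was 0.12 with median scaling. The other probe of that transcript had a log2 change of 0.0014 and the probe annotated to the p16INK4a transcript had 0.33 (adjusted p = 0.241). For each of the 3 probes the groups overlapped. Both transcripts share their later exons, and the probe sequences were not used here, so these annotations do not tell which product a probe reads.

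Cdkn2c, encoding the INK4 inhibitor p18, had a positive change that did not pass. The normalized log2 intensities were 9.19, 9.25 and 9.10 with Ube2o shRNA and 8.93, 8.95 and 8.90 with GFP shRNA, and the groups did not overlap. The log2 change was 0.25 (SE 0.11, 95% confidence interval 0.019 to 0.48, adjusted p = 0.256), and 0.23 in the authors' deposited log2 values (adjusted p = 0.0516). The dimmer probe gave -0.11 with overlapping groups.

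**Figure D3:**
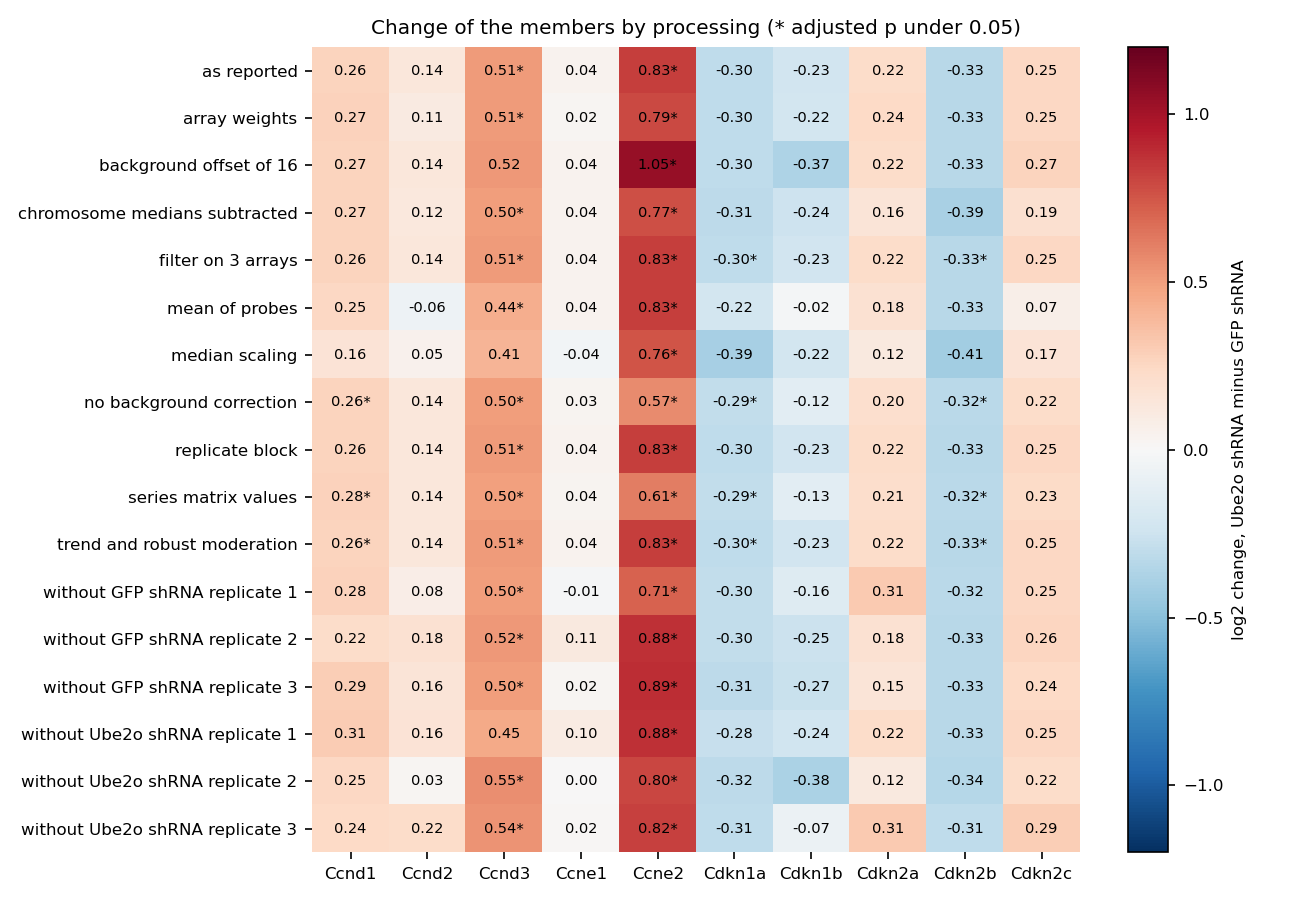
Log2 change, Ube2o shRNA minus GFP shRNA, of each gene (columns) as reported and under 16 other settings (rows), red for higher and blue for lower, with an asterisk where the adjusted p is under 0.05. Ccne2 carries an asterisk in every row, Ccnd3 in all but 3 of the alternatives, Cdkn1a and Cdkn2b in 4 of them and Ccnd1 in 3.

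Other genes of the G1 network were followed in 8 lists with 61 measured genes, of which 3 rose, 2 fell and 56 did not pass. Counts at an unadjusted p under 0.05 are also given for the lists, and they include genes that passed. The share of all genes at that cut was not counted, so these counts cannot be set against the whole array. Among the kinases and pocket proteins that G1 cyclins act with, 0 of 6 genes passed limma and 0 had an unadjusted p under 0.05, with a median log2 change of -0.049. Cdk4, which encodes the partner of D-type cyclins, came nearest to the threshold, at a log2 change of 0.22 (adjusted p = 0.38). Of 10 E2F and DP genes 0 passed, with 1 higher and 2 lower at an unadjusted p under 0.05 and a median log2 change of 0.12. The smallest p in that list was that of E2f8 (log2 change -0.35, adjusted p = 0.108), which lay above background on 0 arrays. E2f1, encoding an activator of S-phase genes, had deposited signals of 1181, 1610 and 1346 on the Ube2o shRNA arrays and 1844, 1681 and 1961 on the GFP shRNA arrays. It was lower on every Ube2o shRNA array, with a log2 change of -0.32 (SE 0.11, adjusted p = 0.143). Under 4 of the alternatives 1 gene of this list fell. With the filter on probes above background on 3 arrays this gene was E2f1. E2f8 is left out there, and no other gene of the list had a negative change. Under the remaining alternatives the gene was not followed by name. Of the 2 remaining inhibitors of the same families 0 passed, also without adjustment: Cdkn2d, encoding p19INK4d, had a log2 change of 0.16, and Cdkn1c, encoding p57, lay above background on 1 array.

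Among 14 genes of activation and turnover 1 rose and 0 fell, with 2 lower at an unadjusted p under 0.05 and a median log2 change of 0.027. The one that rose was Mnat1, an assembly factor of the CDK-activating kinase, with a log2 change of 0.43 (SE 0.12, adjusted p = 0.0387), and its second probe rose as well, by 0.48 (adjusted p = 0.0192). Mnat1 lies on chromosome 12, whose genes had a median log2 change of 0.11, and it did not pass once that median was subtracted (log2 change 0.32, adjusted p = 0.16). It did not pass either when any 1 array was left out (log2 change 0.36 to 0.48), with median scaling (0.33) or with the offset of 16 (0.44).

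Of 15 regulators of the Cdkn2a locus 1 rose and 2 fell, with a median log2 change of 0.064. At an unadjusted limma p under 0.05, 2 were higher and 4 lower, the genes that passed included. No share of all genes at that cut was counted to set beside this. Bmi1 did not pass, with a log2 change of 0.47 (SE 0.14, adjusted p = 0.0609) and groups that did not overlap. Ets2, encoding an ETS activator of p16INK4a transcription, had deposited signals of 436, 591 and 516 on the Ube2o shRNA arrays against 1369, 1637 and 1653 on the GFP shRNA arrays. The groups were far apart, with a log2 change of -1.65 (SE 0.11, adjusted p = 3.87e-08). Tbx3, encoding a T-box repressor of the locus, had signals of 147, 185 and 172 with Ube2o shRNA and 258, 271 and 274 with GFP shRNA. With Ube2o shRNA 1 array stood above background for Tbx3, and its dimmer probe did so on 0 arrays. Its log2 change was -0.995 (SE 0.12, adjusted p = 2.95e-05), a size that rests on values near background. It was -0.62 with no background correction, -0.67 in the authors' deposited log2 values, -0.53 with both probes averaged and -1.37 with the offset of 16. Rnf2, encoding the Polycomb ubiquitin ligase RING1B, rose by 0.43 (SE 0.11, adjusted p = 0.0359). Its call was lost with any 1 array left out (log2 change 0.36 to 0.47, adjusted p from 0.0568 to 0.138), with median scaling (0.35) and with the offset of 16 (0.47). In this list 2 genes rose with the filter, with no background correction and in the authors' deposited log2 values. The same count held with the intensity-dependent moderation and with the replicate number as a block. Without Ube2o shRNA replicate 1, 1 gene other than Rnf2 rose. Bmi1 was not followed by itself under these settings. Ets2 and Tbx3 passed under all 16 alternatives, with log2 changes of Ets2 from -1.73 to -1.50.

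Of 6 measured factors that link mitogens to cyclin D transcription 1 rose and 0 fell. At an unadjusted p under 0.05, a cut with no share of all genes counted, 3 were higher and 0 lower. The list had a median log2 change of 0.25. Jun, encoding a subunit of AP-1, rose by 0.45 (SE 0.12, adjusted p = 0.0274). Jun did not pass with chromosome medians subtracted (log2 change 0.40, adjusted p = 0.0633), with median scaling (0.38, adjusted p = 0.114) or with the offset of 16 (0.50, adjusted p = 0.153), and when 1 array was left out it passed only without GFP shRNA replicate 1. Of the 2 measured genes of the p53 axis 0 passed, also without adjustment, with log2 changes of -0.015 for Mdm2 and 0.040 for Mdm4. The 6 measured proliferation markers had log2 changes from 0.13 to 0.23 with a median of 0.18, and 0 passed limma, also without adjustment. Among them Top2a, a topoisomerase of dividing cells, had 0.23 at its brightest probe (adjusted p = 0.428), whereas another of its probes fell by 0.42 (adjusted p = 0.0332).

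**Figure D4:**
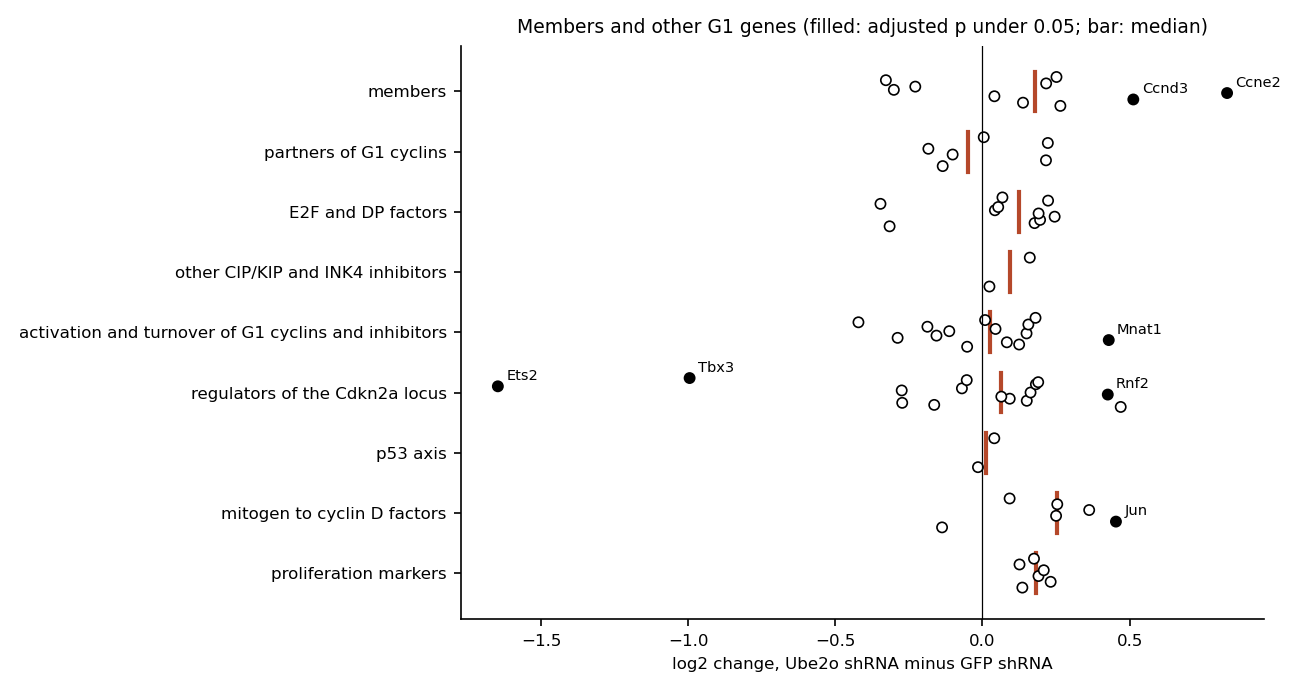
Log2 change, Ube2o shRNA minus GFP shRNA, of the 10 genes and of the 8 other lists (rows; 1 point per gene, brightest probe), with the median of each row as a red bar and filled points for an adjusted p under 0.05. Ets2 and Tbx3 lie far to the left, and the medians of the lists lie between -0.05 and 0.25.

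The genes with the pattern nearest to Ccne2 over the 6 arrays, among genes above background on all of them, were Slc40a1, the iron exporter ferroportin, Smc6, a subunit of a chromosome maintenance complex, and Klhl9, an adaptor of a cullin ligase. The root mean square difference of their log2 values from those of Ccne2, each centred on its own mean, was 0.042, 0.056 and 0.077. For Cdkn2b, the gene with the smallest p among those with a negative change, they were Rtl8a, the chemokine gene Cxcl12 and Trap1, a mitochondrial chaperone gene, at 0.024, 0.026 and 0.027. This likeness rests on 6 arrays in 2 groups and is a description.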

How the data were processed

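Per the labels, single-colour arrays were hybridised with biotinylated cRNA. Of the deposited tables, one gives the linear intensity of each probe and the other, a series matrix, log2 values that the data show to be quantile normalized (median 7.386 on every array). Scanner software and how the authors made the log2 values: not given in the sources used here. Intensities were corrected by normexp (saddle point, offset 50), quantile normalized and taken to log2, and the offset compresses changes of dim genes. Background was inferred from the mode of the log2 signal of an array and the spread below it (p under 0.05). Median deposited signals lay between 153 and 174, 43.1% to 44.9% of probes were above background, and the number of arrays limits the precision.

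The platform annotation, updated through RefSeq (GRCm38.p6), gave 1 symbol to 35784 probes, several to 0 and none here to 9497. The groups were compared in limma 3.58.1 (R 4.3.3; two-sided, Benjamini-Hochberg over all probes, threshold 0.05). The fit was also run on simulated normalized log2 values, which does not test the background correction or the scaling. The submitters call the MEFs independent without naming embryos, so a p-value measures the spread between arrays, part of which may be technical.

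The genes and lists were chosen with earlier results of these data known. Named are the 10 genes, Ube2o, up to 4 called genes of each list (if none, the one nearest to the threshold) and the 3 nearest patterns for the gene with the smallest p in each direction. Bmi1, Cdkn1c, E2f1, Mdm2 and marker genes were named after their values were seen. Of the genes listed, 3 were not analysed here. Alternatives covered background, scaling, filter, moderation, weights of arrays, a replicate block, chromosome medians, probes and arrays left out.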

Additional observations from a re-analysis of the deposited data

How the results depend on the processing

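With 3 arrays a group and dim probes such as those of Ccne2 and Cdkn1b, precision is limited by the number of arrays and by signal over background. As reported 2 of the 10 genes rose and 0 fell. With the offset of 16 and with median scaling 1 rose, Ccne2, and with 1 array left out 1 or 2 rose. With intensity-dependent, robust moderation, without background correction and in the series matrix 3 rose and 2 fell, and with the filter on 3 arrays 2 rose and 2 fell. The 2 that fell were Cdkn1a and Cdkn2b each time. Signs turned for Ccnd2 with probes averaged (-0.060) and at its clone probe (-0.45), for Ccne1 with median scaling (-0.035) and with 1 array left out (-0.014 without GFP shRNA replicate 1, up to 0.11), for Cdkn1b at its second probe (0.18), for Cdkn2c at its dimmer probe (-0.11), for Mdm4 with median scaling (-0.012) and without replicate 1 of GFP shRNA (-0.0014) or of Ube2o shRNA (-0.040; up to 0.083 with another array left out), and for Top2a with probes averaged (-0.059). The cause was not tested.

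Over all probes, 1019 were higher and 1217 lower as reported. Higher and lower counts were 179 and 405 with the offset of 16, 1726 and 1779 with the filter, 576 and 717 with probes averaged (fewer features tested), 567 and 1544 with median scaling, 2024 and 1942 without background correction, 2011 and 1930 in the series matrix, and 1650 and 1688 with intensity-dependent moderation. With 1 array left out 615 to 731 were higher and 830 to 958 lower.

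In the 8 other lists 3 genes rose and 2 fell as reported. These counts were 0 and 2 with the offset of 16, 1 and 2 with chromosome medians subtracted, 5 and 4 with the filter, 0 and 3 with median scaling, 6 and 4 without background correction, 6 and 4 in the series matrix, 5 and 4 with intensity-dependent moderation, and 0 to 1 and 2 to 3 with 1 array left out.

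No pairing by replicate number was seen: deviations of same-numbered arrays from their group means correlated at 0.0095, -0.030 and 0.016. These correlations run over all probes, many near background, and cannot show that the arrays were not prepared in pairs. With the replicate number as a block 966 probes were higher and 1173 lower, Ccne2 and Ccnd3 passed as before, and the other lists had 4 rises and 2 falls.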
